A study of Mus musculus with 6 samples.

Results

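*Lyz2* encodes lysozyme M, the enzyme of macrophages and neutrophils that cleaves bacterial cell walls, and its promoter drives the Cre recombinase in AclyM-KO mice. *Lyz2* was examined here together with its neighbour and paralog *Lyz1* and with 8 genes that mark macrophages, namely *Adgre1*, *Csf1r*, *Cd68*, *Mpeg1*, *Cd14*, *Itgam*, *Laptm5* and *Fcgr1*. These 10 genes were chosen by symbol out of 24445 genes with a row in the count table, and each is represented by its transcript row with the most counts, summed over the 6 libraries. All 10 had enough counts to be tested, among 12023 genes. In AclyM-KO, *Lyz2* fell to 62.8% of the Ctrl mean, 4 of the 8 marker genes fell by smaller amounts, and *Adgre1* rose. *Lyz1* was higher as well, with few counts. Each of these differences had an adjusted p under 0.05, as had 24.9% of all genes tested. *Lyz1* and the marker gene *Laptm5*, which fell, did not pass in every fit with a library left out.

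The libraries came from bone marrow-derived macrophages (BMDMs) of female mice, cultured over 7 days with L929-conditioned medium and then exposed to 100 U/mL IL-4 for 24 h. In both groups loxP sites flank exon 9 of *Acly*, the gene of ATP-citrate lyase. The 3 AclyM-KO libraries also carried Lyz2-Cre, and the 3 Ctrl libraries, labelled WT, came from floxed littermates. Copies of the Cre allele and ages of the mice are not given in the sources used here. Lyz2-Cre was present only in AclyM-KO, so the Cre allele and the loss of *Acly* cannot be told apart as sources of a difference. The replicates are called biological in one place of the study and technical replicates from 3 pooled mice in another, so the tests compare libraries and may not measure the spread between mice. With each gene represented by its transcript row with the most counts, the libraries held between 12151975 and 15587283 counts. *Acly* itself fell to 41.4% of the Ctrl mean (-1.27 ± 0.0533 on the log2 scale, estimate ± standard error, edgeR adjusted p = 5.22e-10), in the direction of the labels.

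Macrophages arise from myeloid precursors under the control of the CSF1 receptor, the product of *Csf1r*, and L929-conditioned medium is a common source of its ligand. Lysozyme M is made throughout the myeloid lineage, which is why its promoter is used to direct Cre to macrophages and neutrophils. In the most common form of Lyz2-Cre, the recombinase is placed at the start of the *Lyz2* coding sequence, so that the carrying copy makes Cre in place of lysozyme. The study's methods call the mice transgenic and do not say whether they have this form. The mouse has a second lysozyme gene of the same type, *Lyz1*, which is best known from Paneth cells of the gut.

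*Lyz2* and *Lyz1* lie next to each other on the minus strand of chromosome 10. In the GENCODE M21 annotation of GRCm38, *Lyz2* spans 117277331 to 117282321 and *Lyz1* spans 117287797 to 117292868, and the transcripts used here have 4 exons each. Their coding sequences are both 447 bases long with the stop codon and differ at 22 positions, an identity of 95.1%. The first 300 bases from the start codon are printed because this likeness bears on how well reads of the genes can be kept apart. Capitals mark the 20 differing positions within this stretch.
Lyz2: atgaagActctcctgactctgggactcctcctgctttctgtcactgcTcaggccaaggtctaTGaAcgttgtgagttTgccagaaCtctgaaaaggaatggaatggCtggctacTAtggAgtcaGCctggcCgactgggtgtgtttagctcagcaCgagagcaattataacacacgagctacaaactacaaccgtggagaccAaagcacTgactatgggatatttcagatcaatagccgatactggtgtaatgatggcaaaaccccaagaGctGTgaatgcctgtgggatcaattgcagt
Lyz1: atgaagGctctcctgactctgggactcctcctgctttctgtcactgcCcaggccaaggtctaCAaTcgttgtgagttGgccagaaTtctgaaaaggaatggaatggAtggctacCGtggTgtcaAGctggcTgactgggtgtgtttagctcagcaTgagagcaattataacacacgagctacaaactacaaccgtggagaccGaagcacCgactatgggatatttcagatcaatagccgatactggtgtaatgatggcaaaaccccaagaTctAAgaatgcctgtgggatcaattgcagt

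The similarity extends upstream. The 200 bases before the RefSeq transcription start on GRCm38.p6 lie at chr10:117282273-117282472 for *Lyz2* and at chr10:117292869-117293068 for *Lyz1*, both read on the minus strand. In an alignment with 2 gap positions they differ at 29 positions, an identity of 85.6%. The distal 150 bases, chr10:117282323-117282472 and chr10:117292919-117293068, are printed because the *Lyz2* promoter directs Cre and because the genes differed in opposite directions between the groups. Capitals again mark letters that differ.
Lyz2: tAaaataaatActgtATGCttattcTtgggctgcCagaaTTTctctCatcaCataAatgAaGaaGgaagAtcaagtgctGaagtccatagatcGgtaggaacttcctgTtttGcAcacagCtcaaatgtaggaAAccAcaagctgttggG
Lyz1: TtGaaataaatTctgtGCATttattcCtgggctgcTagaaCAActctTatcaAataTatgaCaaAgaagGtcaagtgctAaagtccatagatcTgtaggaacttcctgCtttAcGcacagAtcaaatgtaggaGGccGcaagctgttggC

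Short motifs of myeloid transcription factors were searched on both strands of the 200-base windows and chosen with the sequences in view. The motif CAGGAAGT, bound by factors of the ETS family, occurs in both *Lyz* windows and in 2.3% of 27025 promoter windows of the same length. The core motif of RUNX factors, TGTGGT, occurs in the *Lyz2* window but not in the *Lyz1* window, and in 11.3% of all windows. The motif GAGGAA, a core that the myeloid factor PU.1 binds, occurs in neither *Lyz* window but in those of *Itgam*, *Laptm5* and *Fcgr1*, and in 18.9% of all windows. Motifs of different names and the factors that bind them may overlap, so a missing motif does not mean that its factor has no site there. The windows of *Cd68* and *Mpeg1* hold none of the 3 motifs, and *Adgre1*, *Csf1r* and *Cd14* were not examined for motifs.

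*Lyz2* was the most abundant of the 10 genes in every library. It had 105389, 74481 and 86607 counts in Ctrl replicates 1 to 3 and 58696, 65616 and 61298 in AclyM-KO replicates 1 to 3. As CPM, which are counts scaled to library size, these are 7121, 6092 and 6573 in Ctrl against 4004, 4222 and 4201 in AclyM-KO. Every AclyM-KO library was below every Ctrl library, and the AclyM-KO libraries lay closer together than the Ctrl libraries. The means were 6595 ± 515 CPM in Ctrl and 4142 ± 120 CPM in AclyM-KO (SD, n = 3 each), and the log2 fold change was -0.67 with a 95% interval of -0.77 to -0.58 (standard error 0.0442; edgeR adjusted p = 5.79e-08). By p-value, *Lyz2* was number 23 of the 12023 genes tested. Over libraries, the exact two-sided permutation p was 0.10, which is the lowest value that 3 against 3 can give.

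**Figure D1:**
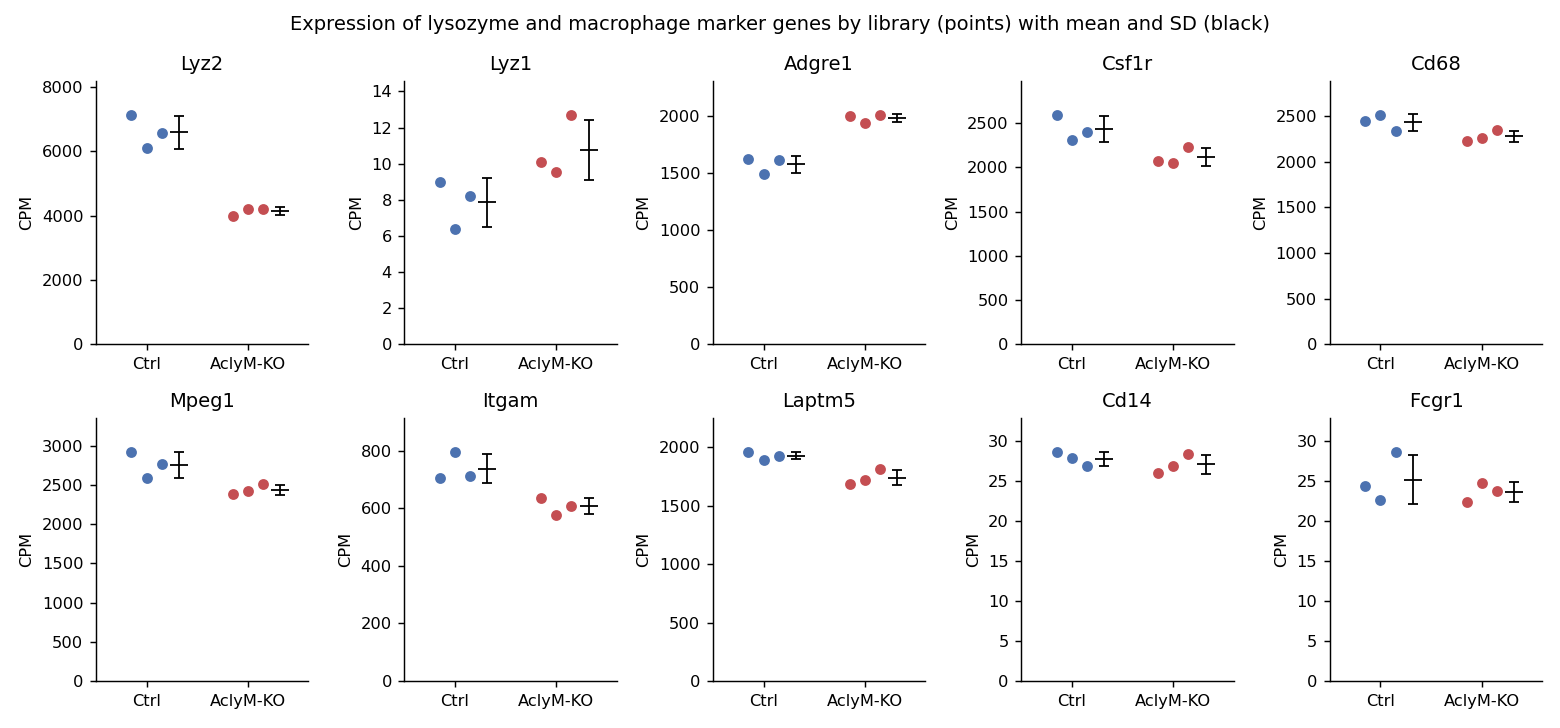
Expression in CPM (y axes, from 0) of *Lyz2*, *Lyz1* and 8 macrophage marker genes in each library of Ctrl (blue) and AclyM-KO (red), with the mean and SD of each group in black. The groups are fully apart for *Lyz2*, *Csf1r*, *Mpeg1*, *Itgam* and *Laptm5* (lower in AclyM-KO) and for *Lyz1* and *Adgre1* (higher). They overlap for *Cd68*, *Cd14* and *Fcgr1*.

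*Lyz1* was measured at a far lower level. The Ctrl libraries held 133, 78 and 108 counts and the AclyM-KO libraries 148, 148 and 185, or 8.99, 6.38 and 8.20 CPM against 10.1, 9.52 and 12.7 CPM. All AclyM-KO libraries were above all Ctrl libraries, by a small margin, since the lowest AclyM-KO and the highest Ctrl value were 9.52 and 8.99 CPM. The log2 fold change was 0.44 (standard error 0.15, 95% interval 0.12 to 0.77, edgeR adjusted p = 0.0444). DESeq2 did not make this call (adjusted p = 0.0572), nor did edgeR when Ctrl replicate 2 or 3 or AclyM-KO replicate 1 or 3 was removed (adjusted p = 0.0677 to 0.206).

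Whether part of the *Lyz1* counts came from *Lyz2* RNA could not be read from the table. Of the 50-base windows in the *Lyz1* transcript, 195 of 1214 (16.1%) also occur in *Lyz2*, and read length and the treatment of multiply aligned reads are not given in the sources used here. Per 1000 *Lyz2* counts there were 1.26, 1.05 and 1.25 *Lyz1* counts in Ctrl and 2.52, 2.26 and 3.02 in AclyM-KO. The ratio was thus not constant between the groups, and it rose by 1.12 on the log2 scale. The exact two-sided permutation p was 0.10, the smallest possible.

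The remaining 8 genes are used to recognise macrophages. *Adgre1* encodes F4/80, an adhesion G protein-coupled receptor on the surface of mature mouse macrophages. It had 1624, 1486 and 1610 CPM in Ctrl and 1995, 1935 and 2003 CPM in AclyM-KO. The groups did not overlap, and this was the only one of the 8 marker genes that rose (log2 fold change 0.33, standard error 0.0395, 95% interval 0.25 to 0.41, edgeR adjusted p = 2.27e-05). Leaving out single libraries gave values of 0.29 to 0.35.

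*Csf1r* encodes the receptor for the growth factors CSF1 and IL-34. It was measured at 2589, 2311 and 2404 CPM in Ctrl and at 2076, 2050 and 2229 CPM in AclyM-KO, with all AclyM-KO libraries below all Ctrl libraries. On the log2 scale the difference was -0.20 ± 0.0441 (estimate ± standard error, edgeR adjusted p = 0.00366). *Adgre1* and *Csf1r* therefore moved apart within the libraries. There were 62.7, 64.3 and 67.0 *Adgre1* counts per 100 *Csf1r* counts in Ctrl and 96.1, 94.4 and 89.8 in AclyM-KO, a difference that does not depend on the scaling of libraries (exact two-sided permutation p = 0.10, the smallest possible).

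*Itgam* encodes CD11b, the alpha chain of complement receptor 3, an integrin of adhesion and phagocytosis. It fell from 704, 796 and 714 CPM in Ctrl to 635, 578 and 610 CPM in AclyM-KO (-0.28 ± 0.0524 on the log2 scale, edgeR adjusted p = 0.00113). The groups did not overlap. Of the 50-base windows of the *Itgam* transcript, 72.4% also occur in the annotated model *Gm49368* at the same locus, so the counts cannot be assigned to *Itgam* alone. No gene of the 10 shares exons with a gene on the opposite strand. The gene of the beta chain with which CD11b pairs, *Itgb2*, was at 1365 ± 76.0 and 1357 ± 25.4 CPM (SD, n = 3 each), with no detectable difference (log2 fold change -0.0085, edgeR adjusted p = 0.905). Per 100 *Itgb2* counts there were 54.1, 54.9 and 53.1 *Itgam* counts in Ctrl and 46.0, 42.6 and 45.8 in AclyM-KO, so the chains differed in their change within the libraries (exact two-sided permutation p = 0.10, the smallest possible).

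*Mpeg1* encodes perforin-2, a pore-forming protein that acts on engulfed bacteria. Its values were 2922, 2593 and 2765 CPM in Ctrl and 2388, 2419 and 2516 CPM in AclyM-KO, again without overlap (-0.18 ± 0.0412 on the log2 scale, edgeR adjusted p = 0.00530). The ratio of *Mpeg1* to *Csf1r* overlapped between the groups, at 112 to 115 *Mpeg1* counts per 100 *Csf1r* counts in Ctrl and 113 to 118 in AclyM-KO (exact two-sided permutation p = 0.50). *Laptm5* encodes a transmembrane protein of lysosomes in blood cells and fell from 1961, 1896 and 1931 CPM to 1689, 1718 and 1811 CPM (-0.15 ± 0.0367 on the log2 scale, edgeR adjusted p = 0.00764). All its AclyM-KO values were below the Ctrl values, but the call was lost without AclyM-KO replicate 1 (edgeR adjusted p = 0.0761) or replicate 2 (0.0553).

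The last 3 genes did not pass the test. *Cd68* encodes macrosialin, a glycoprotein of late endosomes and lysosomes. It had 2448, 2508 and 2335 CPM in Ctrl and 2229, 2265 and 2345 CPM in AclyM-KO, so that 1 AclyM-KO library lay above the lowest Ctrl library. The log2 fold change was -0.092 (95% interval -0.17 to -0.015, edgeR adjusted p = 0.0756). It passed without Ctrl replicate 2 (-0.074, edgeR adjusted p = 0.0495) or replicate 3 (-0.13, edgeR adjusted p = 0.0391).

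The surface receptor genes *Cd14* and *Fcgr1* were weakly expressed in these cells. *Cd14*, whose product hands lipopolysaccharide to TLR4, had 28.58, 27.81 and 26.79 CPM in Ctrl and 25.99, 26.83 and 28.37 CPM in AclyM-KO. *Fcgr1*, which encodes the high-affinity immunoglobulin G receptor CD64, had 24.3, 22.6 and 28.6 CPM in Ctrl and 22.4, 24.8 and 23.7 CPM in AclyM-KO. In both genes the groups overlapped. The 95% intervals of the log2 fold change were -0.19 to 0.12 for *Cd14* (edgeR adjusted p = 0.768) and -0.29 to 0.10 for *Fcgr1* (edgeR adjusted p = 0.509). At this depth a difference as large as that of *Lyz2* would lie outside both intervals.

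**Figure D2:**
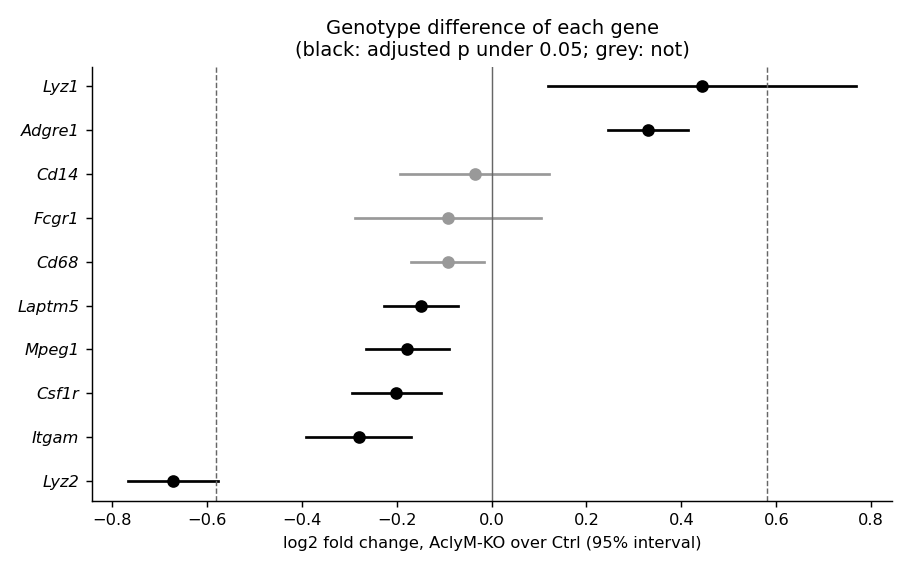
Log2 fold change of AclyM-KO over Ctrl (x axis) with its 95% interval for each gene, in black where the edgeR adjusted p was under 0.05 and in grey where it was not. Dashed lines mark 0.58 in each direction, beyond which only the estimate for *Lyz2* (-0.67) lies.

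Counted by rule, 1 of the 10 genes was called lower and 0 higher with an adjusted p under 0.05 and a log2 fold change beyond 0.58. Over all genes tested, 5.55% were called by this rule (2.57% lower and 2.98% higher). The called gene was *Lyz2*, and its interval reaches the limit. Tested against the limit itself with glmTreat it did not pass (adjusted p = 0.379), as only 0.981% of all genes did. For the count of 0 higher, 2 genes (*Lyz1* and *Adgre1*) had an unadjusted edgeR p under 0.05 with a positive log2 fold change, and DESeq2 and limma-voom also called 0 higher.

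With an adjusted p under 0.05 alone, 5 of the 10 genes were lower and 2 higher, where 24.9% of all genes tested passed in either direction (12.6% lower and 12.4% higher). Abundant genes passed more often, since 37.8% of the 1995 genes with a mean of at least 100 CPM did (2.36% with the fold limit as well). Among the 7 genes of this abundance here, 6 passed, all but *Cd68*. The groups did not overlap for 7 of the 10 genes, against 40.2% of all genes tested. Of these 7, 5 were lower (19.8% of all genes) and 2 higher (20.5%). The median log2 fold change of the 10 genes was -0.12 and that of all genes 0.0014. The 10 genes were chosen with earlier results of these data known.

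**Figure D3:**
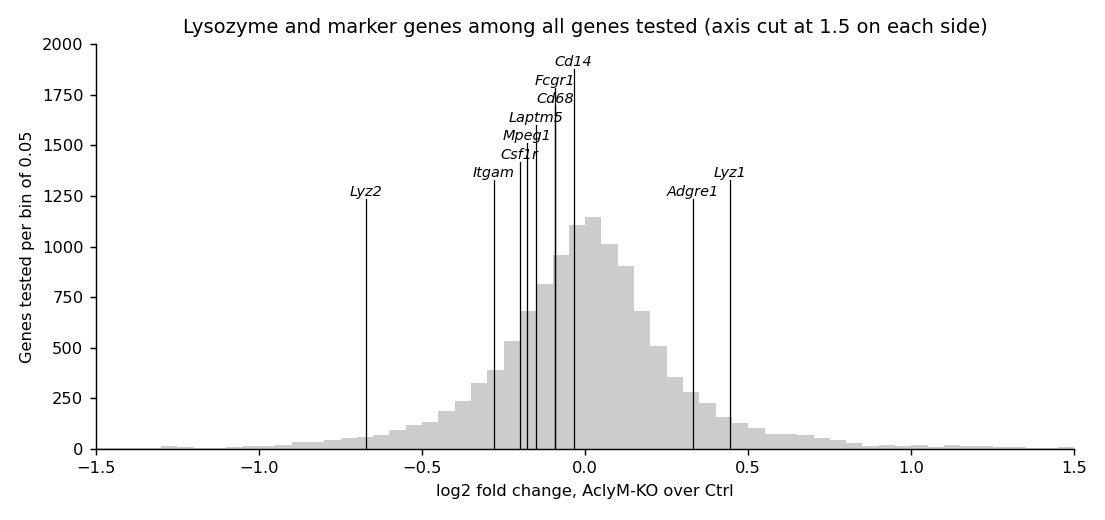
Distribution of log2 fold changes over the 12023 genes tested (grey bars, number of genes per bin of 0.05) with the 10 genes marked by lines whose height carries no value. *Lyz2* lies in the lower tail, with 2.57% of genes below it, and the other genes lie within the body of the distribution.

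*Lyz2* was lower also relative to the marker genes of the same library. Divided by the geometric mean of the 8 marker genes, its counts were 11.1, 9.86 and 10.3 times as many in Ctrl and 6.84, 7.17 and 6.87 times as many in AclyM-KO. On the log2 scale the difference was -0.58, and all AclyM-KO libraries were below all Ctrl libraries (exact two-sided permutation p = 0.10, the smallest possible). With 29 other macrophage genes as reference it was -0.56. With the median of the 8 genes it was -0.76, but in every library that median lies between *Laptm5* and *Adgre1*, the marker gene that rose. Against single genes that fell, the difference was smaller, with 271 ± 6.16 *Lyz2* counts per 100 *Csf1r* counts in Ctrl and 196 ± 9.09 in AclyM-KO, and 239 ± 4.48 and 170 ± 4.17 per 100 *Mpeg1* counts (SD, n = 3 each). In bulk RNA, fewer cells of a type and less RNA per cell cannot be told apart.

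**Figure D4:**
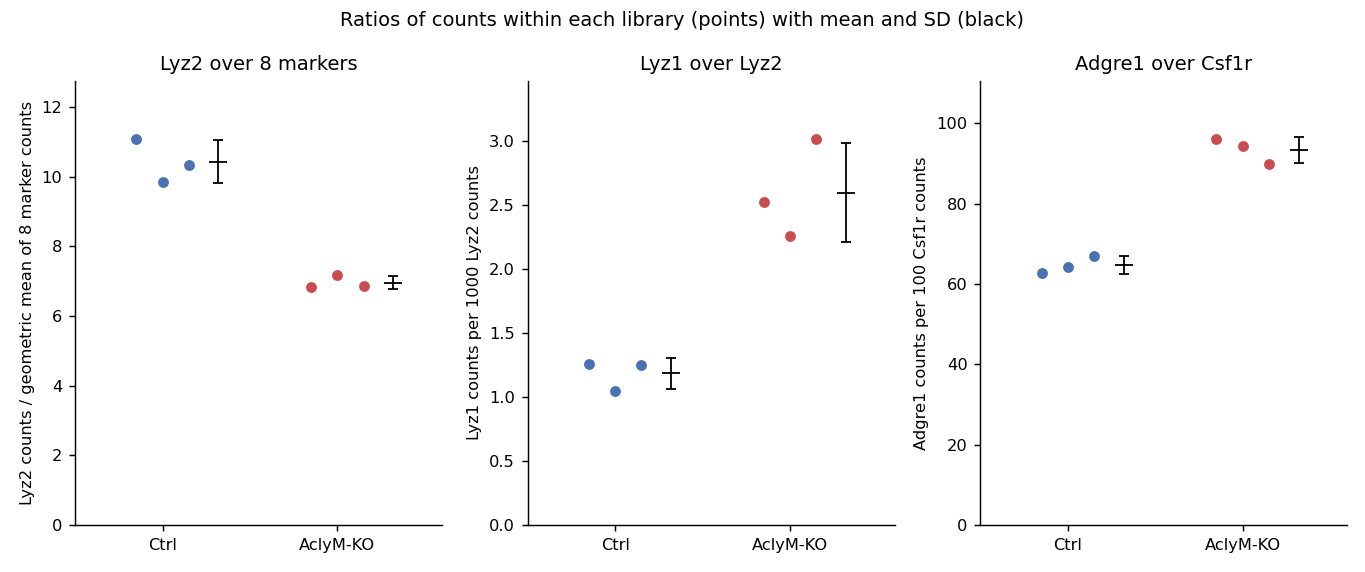
Ratios of read counts within each library (y axes, from 0) for Ctrl (blue) and AclyM-KO (red), with the mean and SD of each group in black. *Lyz2* over 8 marker genes was 9.86 to 11.1 in Ctrl and 6.84 to 7.17 in AclyM-KO, while *Lyz1* over *Lyz2* and *Adgre1* over *Csf1r* were higher in every AclyM-KO library.

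Levels of different genes were compared per length, as CPM per kilobase of transcript (RPKM). By its mean over all 6 libraries, *Lyz2* ranked 11th of 23751 genes with a known length. In Ctrl, it stood at 5012 ± 391 RPKM (SD, n = 3). *Cd68* followed with 1976 ± 71.7, *Laptm5* with 742 ± 12.4, *Mpeg1* with 637 ± 37.9 and *Csf1r* with 629 ± 36.7 RPKM. The last 2 did not differ beyond their spread. *Adgre1* had 486 ± 23.4 and *Itgam* 158 ± 10.8 RPKM.

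The lower end of the scale held *Cd14* with 16.9 ± 0.547, *Fcgr1* with 9.72 ± 1.20 and *Lyz1* with 6.22 ± 1.06 RPKM in Ctrl. In AclyM-KO, *Lyz2* was still highest, at 3148 ± 91.1 RPKM. *Adgre1*, at 611 ± 11.5 RPKM, stood above *Mpeg1* (563 ± 15.4) and *Csf1r* (547 ± 25.01), which were above it in Ctrl. *Fcgr1* (9.12 ± 0.463 RPKM) and *Lyz1* (8.52 ± 1.33 RPKM) no longer differed beyond their spread. Summed over the 10 genes, expression was 17739 to 19430 CPM in Ctrl libraries and 15076 to 15779 CPM in AclyM-KO libraries. Between group means, *Lyz2* differed most (-2453 CPM), while *Adgre1* and *Lyz1* went the other way (404 and 2.91 CPM).

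The pattern of *Lyz2* over the 6 libraries was set beside that of 9811 other genes that reached 50 counts in each library. The 5 genes most like it, by Pearson's r of log2 CPM, were *Aagab*, *Smpd2*, *Ctsh*, *Slc30a7* and *Mettl9*, with r of 0.996 to 0.999. Their log2 fold changes were between -0.67 (*Ctsh*, which encodes the lysosomal protease cathepsin H) and -0.25 (*Mettl9*). The 6 libraries share the difference between the groups, so that many genes correlate highly, and the values are a description. Among the marker genes, r with *Lyz2* was highest for *Laptm5* (0.943), *Mpeg1* (0.933) and *Csf1r* (0.919) and lowest for *Adgre1* (-0.91).

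Position was examined as well, in a comparison added after the data had been seen. Within 1 Mb of *Lyz2*, 12 other genes were tested, of which 4 had an edgeR adjusted p under 0.05, beside 24.9% of all genes. These 4 were *Yeats4* (0.33), *Mdm2* (0.22), *Slc35e3* (0.61) and *Rap1b* (0.15), all higher on the log2 scale, and *Slc35e3* was beyond 0.58. *Yeats4* and *Cpsf6*, the nearest tested genes on either side of the lysozyme pair, had log2 fold changes of 0.33 (edgeR adjusted p = 0.00345) and 0.12 (edgeR adjusted p = 0.101). The lowest value was that of *Nup107* (-0.11, edgeR adjusted p = 0.438).

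The products of these genes act with partner chains, ligands and relatives, of which 26 were listed. A test was possible for 22, and 7 of them were lower and 3 higher with an edgeR adjusted p under 0.05, while 1 was called in each direction beyond 0.58. The share passing, 45.5%, stands beside 24.9% of all genes tested and 37.8% of those with at least 100 CPM, and the share called beyond 0.58 in all genes was 5.55%. The median log2 fold change was -0.0063. Among Fc gamma receptor genes, *Fcgr4* was called lower, with 83.8 ± 9.49 CPM in Ctrl against 52.6 ± 3.02 CPM (SD, n = 3 each) and -0.67 ± 0.0740 on the log2 scale (edgeR adjusted p = 9.43e-06). It encodes an activating receptor for immunoglobulin G, like *Fcgr1*, which did not pass. The integrin alpha chain gene *Itgad* was called higher (1.38, edgeR adjusted p = 0.0396) from 7, 6 and 2 counts in Ctrl and 19, 11 and 14 in AclyM-KO. DESeq2 gave it an adjusted p of 0.102, and removing Ctrl replicate 1 or 3 or AclyM-KO replicate 1 or 3 ended the call.

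The most abundant other genes of this list were *Lamp1*, a lysosomal membrane glycoprotein related to *Cd68*, *Itgb2* (above) and *Csf2rb*, the shared beta chain of the receptors for GM-CSF, IL-3 and IL-5. *Lamp1* had a log2 fold change of 0.090 (edgeR adjusted p = 0.0575). *Csf2rb* fell by 0.17 on the log2 scale (edgeR adjusted p = 0.00645) and missed the threshold without AclyM-KO replicate 2 (0.0545). The following genes were singled out after their values were seen. *Adgre5*, a relative of *Adgre1* that encodes CD97, fell by 0.51 on the log2 scale (edgeR adjusted p = 2.28e-06), opposite to *Adgre1*. *Tlr4*, the signalling partner of CD14, rose by 0.22 (edgeR adjusted p = 0.00240), and the lysozyme-like gene *Lyzl4* had a log2 fold change of 0.52 (edgeR adjusted p = 0.00462).

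A list of 30 other macrophage genes was read in the same way. Of 29 tested, 10 were lower and 6 higher with an edgeR adjusted p under 0.05, and the median log2 fold change was -0.084. That is 55.2% of the list, against 24.9% of all genes tested and 37.8% of the abundant ones. Beyond 0.58, 3 were called lower and 1 higher, where 5.55% of all genes were called. *Mertk*, a receptor for the uptake of dying cells, had 161 ± 9.46 CPM in Ctrl and 97.3 ± 3.76 in AclyM-KO (SD, n = 3 each) and fell by 0.73 on the log2 scale (edgeR adjusted p = 2.56e-07). *C1qa*, a chain of complement C1q, fell by 0.67 (edgeR adjusted p = 6.99e-07), and the other two chains, named after their values were seen, were at -0.44 (*C1qb*, edgeR adjusted p = 2.27e-05) and -0.53 (*C1qc*, edgeR adjusted p = 2.04e-06).

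*Aif1*, which encodes the actin-binding protein IBA1, was called lower (-0.61, edgeR adjusted p = 0.00988), and *Camk1*, a calcium-dependent kinase gene, was called higher (0.63, edgeR adjusted p = 1.41e-06). *Aif1* came within the limit without Ctrl replicate 3 (-0.57) and lost its adjusted p without AclyM-KO replicate 3 (-0.47, edgeR adjusted p = 0.0529). *Camk1* came within the limit without Ctrl replicate 2 (0.57). The most abundant genes of the list differed little. *Gpnmb*, a glycoprotein of lysosomes and the cell surface, was at -0.013 (edgeR adjusted p = 0.712), *Ctsd*, the protease cathepsin D, at 0.22 (edgeR adjusted p = 2.58e-05) and *Sirpa*, the inhibitory receptor for CD47, at 0.14 on the log2 scale (edgeR adjusted p = 0.00979). *Sirpa* lost its call without AclyM-KO replicate 3 (edgeR adjusted p = 0.0647).

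**Figure D5:**
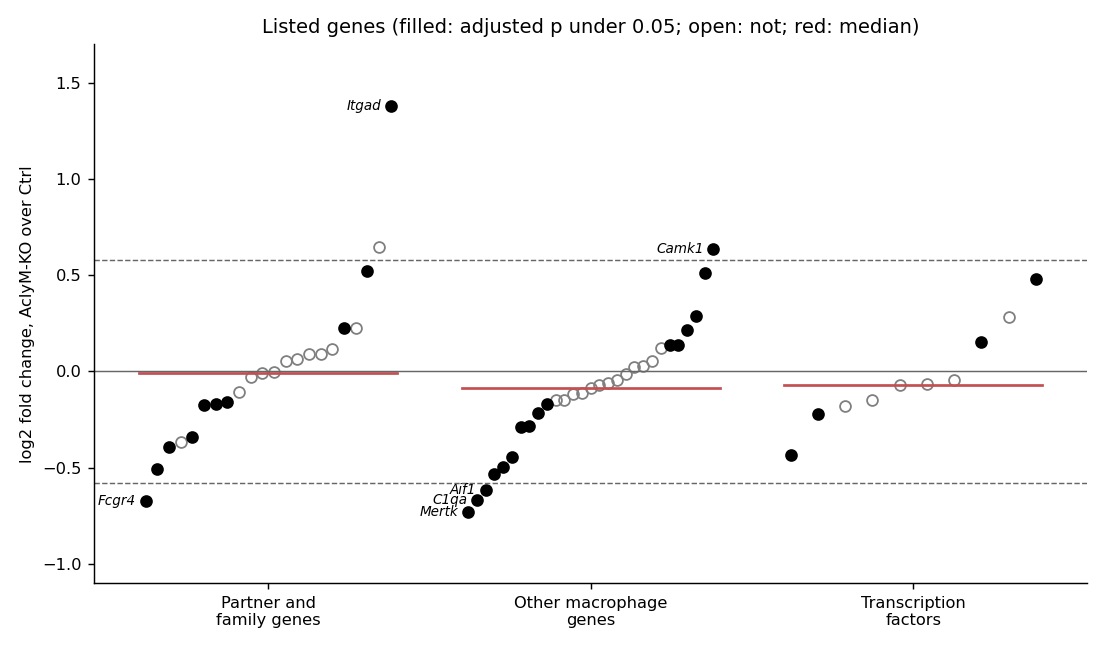
Log2 fold change of AclyM-KO over Ctrl (y axis) for the tested genes of 3 lists, each sorted by value, with filled points for an edgeR adjusted p under 0.05 and open points for others. Red lines are list medians (-0.0063, -0.084 and -0.068), dashed lines mark 0.58 in each direction, and genes called beyond them are named.

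Transcription factors that act on *Lyz2*, *Csf1r* and other myeloid genes formed a list of 10, all tested. None was called beyond 0.58 by edgeR, DESeq2 or limma-voom, where edgeR called 5.55% of all genes tested. Of the 10, 3 higher and 3 lower genes had an unadjusted edgeR p under 0.05. With an edgeR adjusted p under 0.05, 2 of the 10 were lower and 2 higher (24.9% of all genes tested passed), and the median log2 fold change was -0.068. *Spi1*, the gene of PU.1, had 234 ± 2.98 CPM in Ctrl and 201 ± 7.11 in AclyM-KO (SD, n = 3 each) and fell by 0.22 on the log2 scale (edgeR adjusted p = 0.00350). *Zeb2* was at 0.16 (edgeR adjusted p = 0.0171), a call lost without any 1 of 4 libraries, Ctrl replicate 1 or 3 and AclyM-KO replicate 1 or 2. *Cebpa* was at -0.064 (edgeR adjusted p = 0.502). The other genes that passed were *Irf8* (-0.43, edgeR adjusted p = 2.36e-05) and *Klf4* (0.48, edgeR adjusted p = 9.71e-05).

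Markers of other cells were read beside these results, since *Lyz2*, *Itgam* and *Fcgr4* are also expressed by monocytes and neutrophils. Neutrophil markers summed to 79.5 to 121 CPM in Ctrl and 95.9 to 109 CPM in AclyM-KO over 14 genes, of which 7 stayed under 10 counts in every library, *Ly6g* and *Elane* among them. In Ctrl, most of that sum was *Mmp9*, at 45.0 to 85.8 CPM in Ctrl and 30.8 to 39.2 CPM in AclyM-KO. A sum without *Mmp9*, formed after the values were seen, was 34.5 to 36.8 CPM in Ctrl and 65.0 to 69.3 CPM in AclyM-KO. The largest part of this sum was *Mmp8*, at 16.9 ± 2.18 CPM in Ctrl and 40.1 ± 1.77 CPM in AclyM-KO (SD, n = 3 each). Each of the 5 tested markers besides *Mmp9* was higher in all AclyM-KO libraries than in all Ctrl libraries (20.5% of all genes). Of the 6 tested, *Mmp8*, *S100a8* and *S100a9* were called higher (1.25, 0.85 and 0.59 on the log2 scale) and *Mmp9* lower (-0.85). Over all genes tested, 2.98% were called higher and 2.57% lower beyond 0.58. *Ltf* and *Ngp* did not pass (edgeR adjusted p = 0.206 and 0.108). *S100a9* lost its adjusted p without Ctrl replicate 3 (edgeR adjusted p = 0.0728), and *Mmp9* came within the limit without Ctrl replicate 2 (-0.55). Monocyte and precursor markers, 6 genes, summed to 9.66 to 10.96 CPM in Ctrl and 16.7 to 19.6 CPM in AclyM-KO, and *Kit* was called higher (1.26 on the log2 scale). *Cd34*, *Ly6c2* and *Ms4a3* of that list had too few counts to be tested.

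Dendritic cell markers, 8 genes, summed to 20.7 to 25.8 CPM in Ctrl and 15.1 to 19.4 CPM in AclyM-KO. Most of that sum was *Batf3*, at 19.1 ± 3.62 CPM in Ctrl and 12.9 ± 1.94 CPM in AclyM-KO (SD, n = 3 each). Of 3 tested, *Cd209a* was called higher (1.65, edgeR adjusted p = 0.0128), where 2.98% of all genes tested were. It had 3 to 6 counts per Ctrl library and 12 to 16 per AclyM-KO library. Neither DESeq2 (adjusted p = 0.0517) nor edgeR without Ctrl replicate 1 (adjusted p = 0.0600) made that call, and *Batf3* fell by 0.57 (edgeR adjusted p = 0.00626). *Flt3* had at most 1 count per library. Markers of lymphoid cells (6 genes), of mast cells, basophils and eosinophils (6), of fibroblasts (5) and of erythroid cells (3) reached at most 1.30 CPM in sum in any library. *Ncr1*, *Mcpt4*, *Mcpt8* and *Fcer1a* had no counts. The part of such cells in the differences of *Lyz2* and the marker genes was not tested.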

How the data were processed

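Strand-specific mRNA libraries of 6 BMDM samples were made and sequenced by the authors, who aligned the reads to mm10 with STAR 2.5.2b. The deposited values are unnormalized read counts per RefSeq transcript. The program that counted them is not given in the sources used here. Of 35745 rows, 99.7% were paired with a symbol through RefSeq (GRCm38.p6) or GENCODE M21, and the 117 others, holding 0.370% to 1.38% of the counts, were left out.

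Counts were tested here with edgeR 4.0.16 (filterByExpr, TMM, glmQLFit, glmQLFTest, genotype as the only term) and Benjamini-Hochberg adjustment over all genes tested. The study used DESeq2, run here (1.42.0) as an alternative, beside limma-voom, glmTreat, other scalings and filters, summed rows of a gene, a replicate block and the removal of each library. RPKM is CPM per kilobase of the GENCODE transcript. Ratios had 0.5 added to counts on the log2 scale. Within groups, libraries varied beyond sampling (chi-square per gene 2.31 to 7.46). The fit was tested on simulated data. The genes, lists and alternatives were chosen with earlier results of these data known. Besides the 10 genes and *Acly*, the text names listed genes called beyond 0.58, up to 3 further genes per list with the highest CPM, and the 5 genes most correlated with *Lyz2*, with exceptions stated. Naive macrophages and tumors were not analysed here, and results for some single genes are left out.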

Additional observations from a re-analysis of the deposited data

How the results depend on the processing

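Counted gene by gene, the alternatives gave 161 refits of the 10 genes, of which 147 kept direction and side of the threshold. *Lyz2* (-0.73 to -0.61 without each library in turn), *Adgre1*, *Csf1r*, *Itgam* and *Mpeg1* passed and *Cd14* did not in every fit. *Lyz1* lost its call with total counts only (0.42, adjusted p = 0.0530), DESeq2 (0.45) and summed rows (0.45, adjusted p = 0.0677), each of which left 1 gene higher at an adjusted p under 0.05, and ranged from 0.31 to 0.55 without each library (1 to 2 genes higher). *Cd68* passed with total counts only (-0.11, adjusted p = 0.0313) and without the filter on low counts (-0.098, adjusted p = 0.0328), and ranged from -0.13 to -0.074 without each library. *Laptm5* ranged from -0.18 to -0.13, and *Fcgr1* from -0.16 to 0.0035, the latter without Ctrl replicate 3. The cause was not tested. With glmTreat, 0 of the 10 genes were called lower, and 41 genes of all were lower and 77 higher in place of 309 and 358. Without AclyM-KO replicate 2, 972 genes were lower at an adjusted p under 0.05 in place of 1511, and 4 partner genes in place of 7.

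The replicate numbers are shared by the groups but did not pair the libraries. The correlations of same-numbered deviations were -0.065, 0.050 and -0.031. With a replicate block, *Lyz2* was at -0.67 (edgeR adjusted p = 6.31e-08), and no call among the 10 genes changed. The numbers of all genes at an adjusted p under 0.05 were then 1329 lower and 1315 higher. Within-pair permutation of the *Lyz2* and *Lyz1* ratios gave an exact p of 0.25, the smallest that 3 pairs allow. Counts of *Lyz1*, *Cd14* and *Fcgr1* (78 to 423 per library) limit what can be detected for these genes.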
